A study of Mus musculus with 40 samples.

Results

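The genes described here are 37 interferon-stimulated genes and interferon-inducible GTPases of the mouse, measured in the lungs of a pair of pulmonary fibrosis models. They were taken by name from a list that was chosen with earlier results of these data known. They were matched by symbol to the identifiers of the count tables, and make up 37 of 55536 genes. All 37 were found in both models and all 37 passed the filter on low counts in every fit. The list holds 8 GTPases of the guanylate-binding and immunity-related families and 29 other genes. Most of the 29 are best known as targets of type I interferon, and Irf1 is also among them. Below, the GTPases means the 8 alone, and Mx1 and Mx2, of another GTPase family, are counted with the 29.

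Type I interferons bind a receptor on almost every cell, and the kinases on its tails activate a complex that holds Stat2 and Irf9 and binds interferon-stimulated response elements in the promoters of target genes. Interferon gamma, made mainly by T cells and NK cells, uses another receptor and acts through gamma-activated sites. Many genes answer to both, and the guanylate-binding and immunity-related GTPases are among the strongest targets of interferon gamma. In the lung these genes limit virus and intracellular bacteria.

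RNA came from the left lungs of 40 C57BL/6 mice in 8 groups of 5, one library per mouse. In the bleomycin model the mice got saline or 1.5 U/kg of the DNA-damaging drug bleomycin into the lung through the mouth, and in the Ad-TGFb1 model an empty vector or an adenovirus with mouse Tgfb1 behind a CMV promoter through the nose. Daily gavage with vehicle or with saracatinib at 20 mg/kg began on day 10 in each of these 4 kinds of lung. Saracatinib blocks kinases of the Src family. Harvest was on day 28, so treatment lasted 18 days. The groups are thus saline, bleomycin, empty vector and Ad-TGFb1 lungs, each with vehicle and with saracatinib. No group carries a mutation, both sexes were used, and no age is stated in the sources that were at hand. Lungs of the Ad-TGFb1 model all received an adenoviral vector, the controls included, and the saline lungs received none. The sources give 5 replicates per group and nothing on how mice were housed or handled together, so p-values measure the spread between these libraries.

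Total counts ran from 8812233 to 17336972 per library, and 18846 genes were tested in the bleomycin model, 18834 in the Ad-TGFb1 model and 19529 over all 40 libraries. Markers of the lung were present in all 40 libraries, with the 5 alveolar type 2 markers summing to at least 4502 CPM (a count divided by the TMM-scaled total of its library in megacounts). Values below are CPM unless another scale is named. Some libraries stood apart in these genes. Replicate 3 of the empty vector vehicle group was the highest of its group for 27 members, replicates 2 and 5 of that group the lowest for 17 and 18, replicate 5 of the saline vehicle group the lowest for 29, replicate 5 of the saline saracatinib group the lowest for 28, and in the Ad-TGFb1 saracatinib group replicate 1 was the highest for 36 and replicate 2 the lowest for 33. In the Ad-TGFb1 vehicle group replicate 1 was the highest for 29 members, and replicates 3 and 4 the lowest for 18 and 17. Distance from the group mean was also taken on the first 2 principal components of log2 CPM over the genes kept in each model. The libraries farthest by it were replicate 5 of both saline groups and replicates 1 and 5 of the empty vector vehicle group. Counts of called members without these 4 libraries, a choice made after the data were seen, stand beside the counts with them.

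Promoter windows of RefSeq on GRCm38.p6, from 250 bases before to 50 after the start site, were at hand for 28 of the 37 members. The core of the interferon-stimulated response element, GAAANNGAA, was found on either strand in 18 of these 28 members and in 9.76% of all 27025 genes with a window. The gamma-activated site, TTCNNNGAA, which reads alike on both strands, was found in 10 of the 28 and in 9.55% of all genes with a window. Both motifs were present in 6 members, the response element core alone in 12, the gamma-activated site alone in 4 and neither in 6, namely Cmpk2, Irf7, Irf9, Oasl1, Oasl2 and Xaf1. Among the 7 GTPases with a window, 7 held the response element core and 4 the gamma-activated site, against 11 and 6 of the 21 other members with a window. On the given strand alone the core was found in 8 of 28 members and 5.15% of all genes with a window. A match describes letters and not a bound factor, and the members had no window in the table for Dhx58, Usp18, Zbp1, Mx2, Mx1, Iigp1, Parp14, Oas2 and Rtp4.

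The stretches below stand for the kinds of promoter in the list, and all lie before the annotated start site. Capitals mark motif matches, each stretch is printed 5′ to 3′ in the direction of its gene, and overlapping matches run together. Ifit1 (chr19:34640765-34640828, forward strand), Isg15 (chr4:156200861-156200911, reverse strand) and Oas3 (chr5:120777705-120777749, reverse strand) carry clustered response element cores with no gamma-activated site, and Stat2 (chr10:128270262-128270300, forward strand) a single core. Gbp7 (chr3:142530215-142530307, forward strand) and Igtp (chr11:58199496-58199545, forward strand) carry both motifs. Irf1 (chr11:53769909-53769947, forward strand) carries a gamma-activated site alone.
Ifit1: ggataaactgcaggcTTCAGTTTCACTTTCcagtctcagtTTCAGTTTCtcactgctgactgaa
Isg15: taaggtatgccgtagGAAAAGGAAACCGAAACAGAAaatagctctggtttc
Oas3: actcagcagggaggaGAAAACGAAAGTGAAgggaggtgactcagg
Stat2: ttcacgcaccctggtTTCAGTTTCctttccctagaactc
Gbp7: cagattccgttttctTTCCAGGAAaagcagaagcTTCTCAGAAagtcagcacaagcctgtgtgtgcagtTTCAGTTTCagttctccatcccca
Igtp: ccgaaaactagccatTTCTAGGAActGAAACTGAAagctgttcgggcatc
Irf1: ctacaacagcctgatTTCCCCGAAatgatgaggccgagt

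The first match of the core begins at position -109 in Ifit1, -78 in Isg15, -75 in Oas3 and -221 in Stat2, counted from the start site, where -1 is the base before it. In Gbp7 the gamma-activated sites begin at -106 and -87 and the core at -52, and in Igtp the gamma-activated site begins at -45 and the core at -34. The gamma-activated site of Irf1 begins at -90. Gbp2 has a core at -58, Gbp3 at -44 and -38, and Gbp5 at -164, beside gamma-activated sites of Gbp5 at -245 and -52. No binding or chromatin data belong to this series, so these sites are shown as sequence only.

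Relative to length, the members spanned a wide range in uninjured lung. In saline vehicle lungs, levels in CPM per kb of merged exon ran from 0.503 for Oas3 to 30.7 for Bst2, which codes for tetherin, a protein that holds budding virus to the cell. Irf1, Ifi35, Parp14 and Gbp2 followed Bst2, at 27.1, 25.4, 19.4 and 19.2 CPM per kb. In Ad-TGFb1 vehicle lungs the order by length changed, with Gbp2 first at 76.2, then Iigp1 at 52.6, Bst2 at 50.1 and Igtp at 46.2 CPM per kb.

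**Figure D1:**
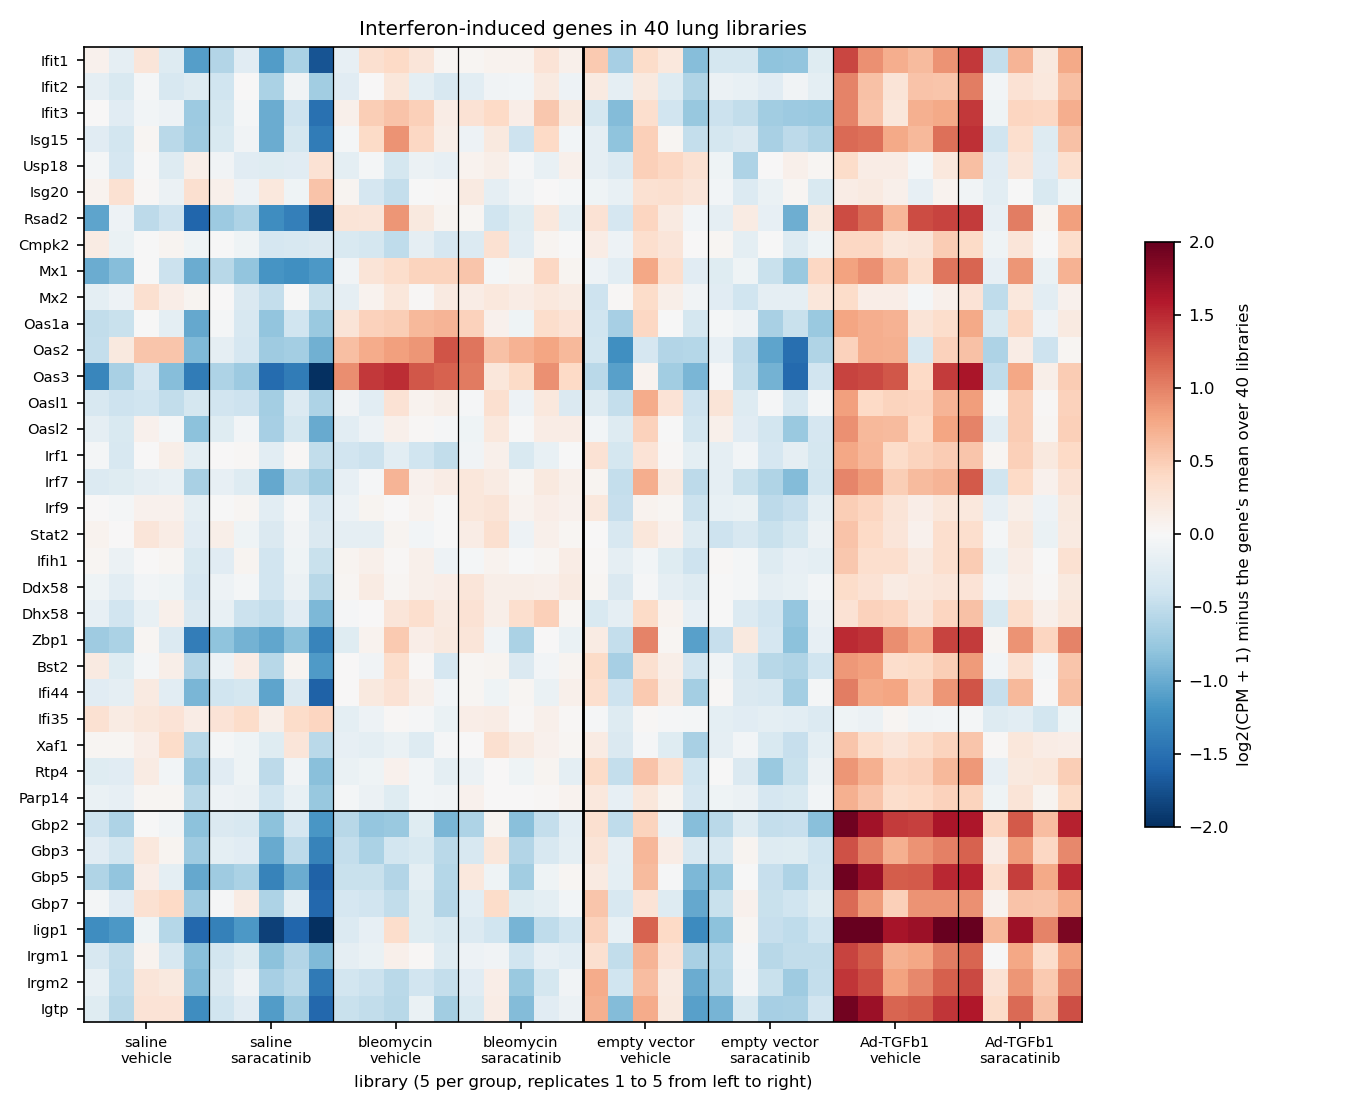
Heat map of log2(CPM + 1) minus each gene's mean over the 40 libraries, for the 37 members (rows, the 8 GTPases below the line) in 8 groups of 5 libraries (columns, replicates 1 to 5 from left to right). Red is above and blue below the gene's mean, and the GTPases are reddest in the Ad-TGFb1 groups.

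In bleomycin lungs with vehicle, 28 days after injury, antiviral genes of the oligoadenylate synthetase family, Rsad2, Mx1 and Isg15 were higher than in saline lungs, while none of the guanylate-binding proteins passed the test. At an adjusted p under 0.05, 12 of 37 members rose and 3 fell, where 20.6% of all tested genes rose and 20.3% fell. The median log2 fold change of the members was 0.09, against -0.03 over all genes. The members that rose were Ifit3, Isg15, Rsad2, Mx1, Oas1a, Oas2, Oas3, Oasl1, Irf7, Ddx58, Zbp1 and Iigp1, and those that fell were Cmpk2, Irf1 and Ifi35. The 5 bleomycin libraries lay above all 5 saline libraries for 7 members and below them for 2, where 15.2% of all tested genes lay above and 11.5% below in this way. Without replicate 3 of the bleomycin vehicle group, or without replicate 5 of the saline vehicle group, 7 members rose, and without the libraries farthest from their group 11 rose and 6 fell. In bulk tissue, more or fewer cells of a type and more or less RNA per cell cannot be told apart.

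In Ad-TGFb1 lungs with vehicle the picture was broader. Of 37 members, 27 rose and 0 fell against empty vector, where 11.5% of all tested genes rose and 14.3% fell. The median log2 fold change of the members was 0.69, against -0.01 over all genes, and 34 of 37 values were above 0. All 8 GTPases were among those that rose, together with all 3 IFIT genes and 3 of the 4 transcription factors. The 10 members not called were Usp18, Isg20, Cmpk2, Mx1, Mx2, Oasl1, Irf7, Dhx58, Ifi35 and Rtp4. The Ad-TGFb1 libraries lay above all 5 empty vector libraries for 18 members, where 5.89% of all tested genes did so. Leaving out single libraries gave 21 to 32 members called higher, and leaving out the 2 farthest libraries of this model, both in the empty vector vehicle group, gave 22.

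**Figure D2:**
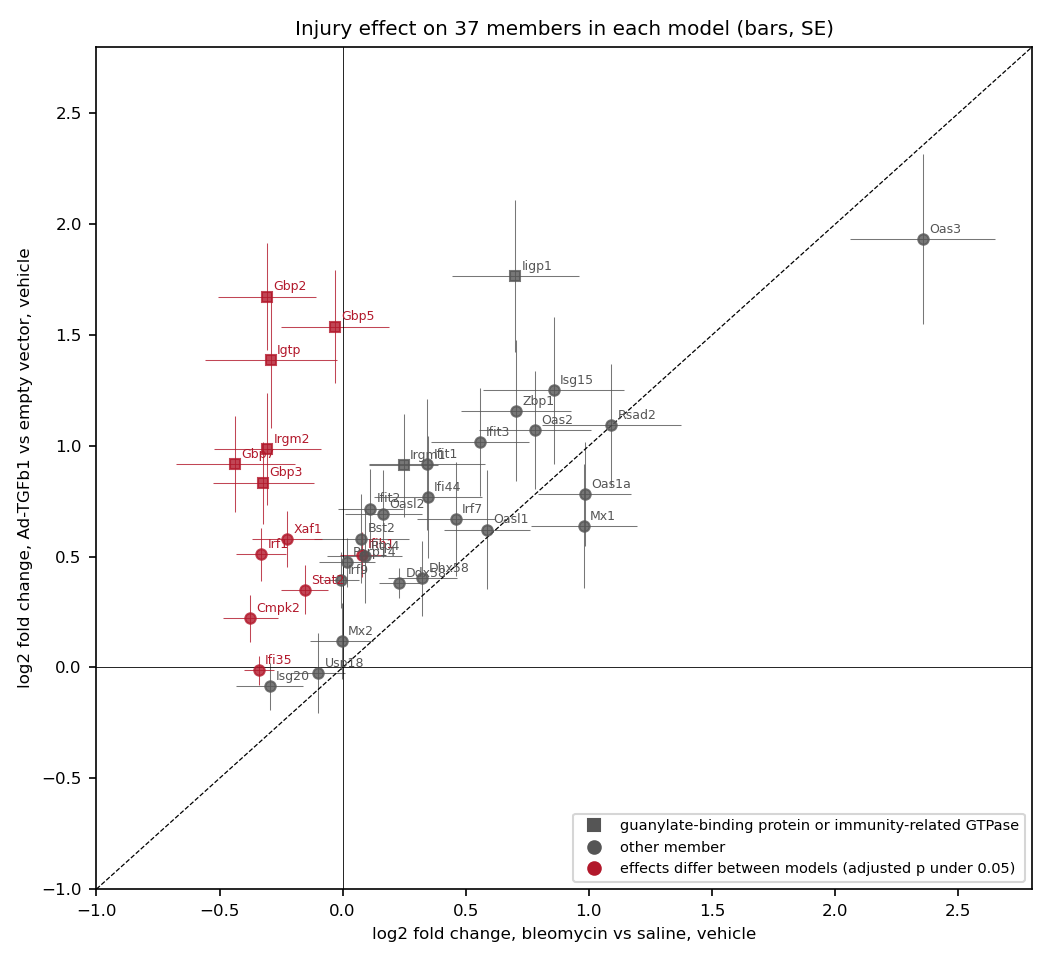
Log2 fold change of each of the 37 members after bleomycin (x axis, against saline) and after Ad-TGFb1 (y axis, against empty vector), both in vehicle lungs, with SE bars. Squares are the 8 GTPases, red marks the 12 members whose effects differ between the models, and red symbols lie above the dashed line of equal change.

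The effects of the injuries were compared directly in 1 fit of all 40 libraries. For 12 of 37 members the change after Ad-TGFb1 was higher than that after bleomycin and for 0 it was lower, where 6.47% of all tested genes were called higher and 8.64% lower. Without the farthest libraries 14 were higher and 0 lower. The 12 called with all 40 libraries were Gbp2, Gbp3, Gbp5, Gbp7, Igtp, Irgm2, Irf1, Xaf1, Cmpk2, Stat2, Ifih1 and Ifi35. The largest differences on the log2 scale were 1.98 (SE 0.33, adjusted p = 7.02e-05) for Gbp2, 1.68 (SE 0.42, adjusted p = 0.00622) for Igtp and 1.57 (SE 0.35, adjusted p = 0.0022) for Gbp5. No member that rose in bleomycin lungs was called for this difference. Among those members it was 0.00 for Rsad2, -0.43 for Oas3, -0.20 for Oas1a and -0.35 for Mx1. The others were Ifit3, Isg15, Oas2, Oasl1, Irf7, Ddx58, Zbp1 and Iigp1. In the separate fits of the models, each of these had a larger log2 fold change after Ad-TGFb1 than after bleomycin. Route, vector, experiment and injury differ together between the models and cannot be told apart.

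**Figure D3:**
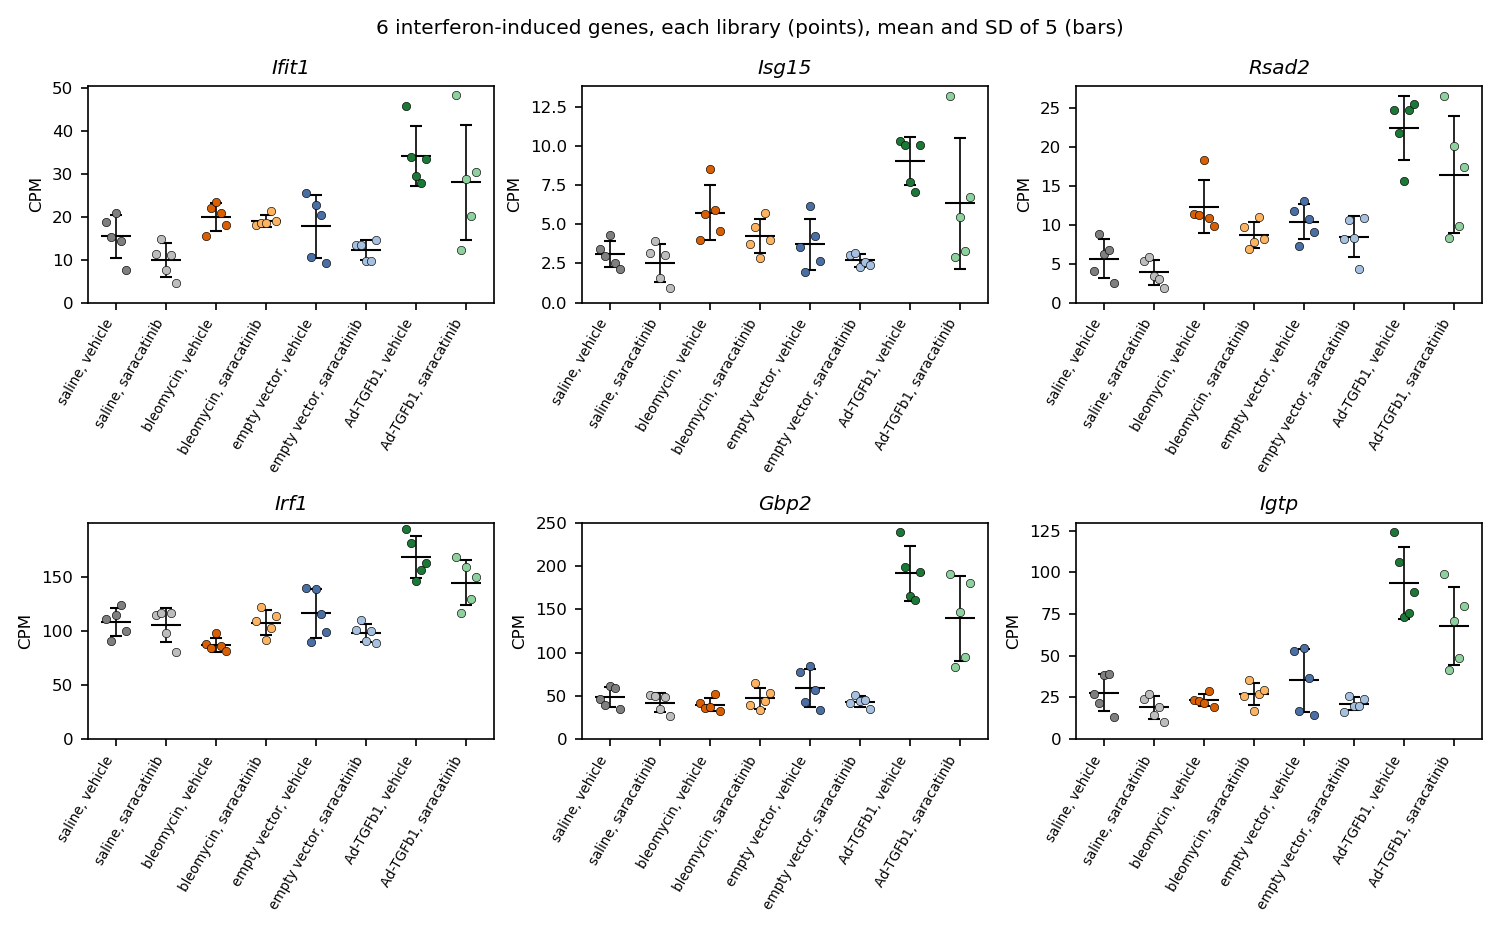
CPM of 6 members in every library (points) of the 8 groups, with the mean and SD of 5 libraries (bars) and a linear axis from 0. The means of Gbp2 and Igtp are higher in both Ad-TGFb1 groups than in the other 6 groups, and those of Rsad2 and Isg15 are also higher in bleomycin vehicle than in saline vehicle lungs.

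The IFIT proteins bind foreign RNA and block its translation. Ifit1 read 18.7, 15.3, 20.8, 14.4 and 7.66 in saline vehicle lungs and 15.5, 22.0, 23.3, 20.9 and 18.0 in bleomycin vehicle lungs. The groups overlapped, and Ifit1 did not pass the test (log2 fold change 0.34, SE 0.23, edgeR adjusted p = 0.255). In empty vector vehicle lungs it read 25.5, 10.7, 22.8, 20.5 and 9.3, and in Ad-TGFb1 vehicle lungs 45.7, 33.9, 29.4, 27.7 and 33.4. The Ad-TGFb1 libraries were all higher (log2 fold change 0.92, SE 0.30, edgeR adjusted p = 0.0283). Ifit1 lost its call after Ad-TGFb1 with vehicle when replicate 1 of the Ad-TGFb1 vehicle group or 2 or 5 of the empty vector vehicle group was left out, with adjusted p of up to 0.0894 over all settings. Ifit3 rose in both models, by 0.56 (SE 0.20, adjusted p = 0.0312) after bleomycin and by 1.02 (SE 0.24, adjusted p = 0.0051) after Ad-TGFb1 on the log2 scale. Ifit3 lost its call after bleomycin with vehicle when replicate 2, 3 or 4 of the bleomycin vehicle group or 2 or 5 of the saline vehicle group was left out, with adjusted p of up to 0.0801 over all settings. Ifit2 rose after Ad-TGFb1, by 0.72 (SE 0.18, adjusted p = 0.00659), and its value after bleomycin was 0.11 with an adjusted p of 0.519.

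Isg15 is a ubiquitin-like protein that is joined to other proteins, and Usp18 is the protease that removes it and also dampens the type I interferon receptor. Isg15 read 3.4, 2.99, 4.29, 2.54 and 2.13 in saline vehicle lungs and 3.97, 5.67, 8.52, 5.87 and 4.54 in bleomycin vehicle lungs, where 1 saline library reached into the range of the bleomycin group. It rose (log2 fold change 0.86, SE 0.29, edgeR adjusted p = 0.022). Isg15 lost its call after bleomycin with vehicle when replicate 3 of the bleomycin vehicle group or 5 of the saline vehicle group was left out, with adjusted p of up to 0.0751 over all settings. In the other model it read 3.55, 1.95, 6.15, 4.27 and 2.67 with empty vector and 10.3, 10.0, 7.68, 7.05 and 10.1 with Ad-TGFb1, with no overlap (log2 fold change 1.25, SE 0.33, edgeR adjusted p = 0.00962). Usp18 was called in neither model. It read 18.8, 15.1, 19.3, 16.0 and 21.0 in saline and 16.7, 18.7, 15.0, 17.7 and 17.2 in bleomycin vehicle lungs, and 17.0, 15.9, 27.4, 26.0 and 24.0 in empty vector and 25.2, 21.6, 21.6, 18.8 and 22.6 in Ad-TGFb1 vehicle lungs. These ranges overlap, with log2 fold changes of -0.10 and -0.02 and adjusted p of 0.496 and 0.938. Usp18 overlaps the antisense gene Gm44148, and the sources do not give the strand setting of the counting.

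Rsad2 codes for viperin, which makes a nucleotide that ends viral RNA chains, and Cmpk2, its neighbour on chromosome 12, a mitochondrial nucleotide kinase. Rsad2 read 4.01, 8.73, 6.24, 6.79 and 2.45 in saline vehicle lungs against 11.4, 11.3, 18.2, 10.8 and 9.79 in bleomycin vehicle lungs, with no overlap (log2 fold change 1.09, SE 0.28, edgeR adjusted p = 0.00464). It read 11.7, 7.28, 13.1, 10.8 and 9.00 with empty vector against 24.7, 21.8, 15.5, 24.7 and 25.4 with Ad-TGFb1, again without overlap (log2 fold change 1.09, SE 0.27, edgeR adjusted p = 0.00708). Cmpk2 went the other way after bleomycin. It read 23.1, 18.5, 20.3, 21.4 and 19.3 in saline and 16.3, 15.9, 14.1, 18.1 and 16.1 in bleomycin vehicle lungs, all bleomycin libraries lower (log2 fold change -0.37, SE 0.11, edgeR adjusted p = 0.0105). After Ad-TGFb1 its value of 0.22 missed the threshold (adjusted p = 0.125), and the difference between the injuries was called, at 0.59 (SE 0.15, adjusted p = 0.00665). Isg20, an RNA exonuclease, was called in neither model, at -0.30 (adjusted p = 0.0893) after bleomycin and -0.08 after Ad-TGFb1.

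The Mx proteins are dynamin-like GTPases that trap viral particles, and laboratory strains such as C57BL/6 are known to carry a defective Mx1. Mx1 transcripts read 4.31, 4.82, 9.44, 6.79 and 4.26 in saline vehicle lungs and 9.04, 11.5, 12.4, 13.4 and 13.3 in bleomycin vehicle lungs. A single saline library reached the bleomycin range, and Mx1 rose (log2 fold change 0.98, SE 0.22, edgeR adjusted p = 0.00136). With empty vector it read 8.79, 8.1, 16.9, 12.2 and 8.02 and with Ad-TGFb1 17.4, 18.8, 15.5, 12.5 and 21.1, overlapping groups that did not pass (log2 fold change 0.64, SE 0.28, edgeR adjusted p = 0.0998). Mx2, annotated as a polymorphic pseudogene, was at 0.00 and 0.12 in the bleomycin and Ad-TGFb1 comparisons and was called in neither.

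The oligoadenylate synthetases make the messenger that switches on RNase L, while Oasl1 and Oasl2 are related proteins. In bleomycin lungs 4 of the 5 rose, and Oas3 changed most of all members. Oas3 read 2.34, 4.24, 5.54, 3.53 and 2.13 in saline and 14.6, 20.8, 21.8, 18.5 and 17.7 in bleomycin vehicle lungs, every bleomycin library higher (log2 fold change 2.36, SE 0.30, edgeR adjusted p = 6.61e-06). It read 4.68, 2.87, 7.63, 4.07 and 3.36 with empty vector and 20.0, 19.5, 18.4, 9.86 and 20.6 with Ad-TGFb1, likewise without overlap (log2 fold change 1.93, SE 0.38, edgeR adjusted p = 0.00161). Its counts are low, as few as 20 in a saline vehicle library. Oas1a read 5.67, 5.9, 8.34, 7.16 and 3.62 in saline vehicle and 10.2, 11.8, 12.2, 13.7 and 14.0 in bleomycin vehicle lungs, where every bleomycin library was higher (log2 fold change 0.98, SE 0.19, edgeR adjusted p = 0.000455). After Ad-TGFb1 Oas1a rose by 0.78 (SE 0.23, adjusted p = 0.0188). Oas1a lost its call after Ad-TGFb1 with vehicle when replicate 1 of the Ad-TGFb1 vehicle group or 5 of the empty vector vehicle group was left out, with adjusted p of up to 0.0908 over all settings.

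Oas2 read 15.3, 24.9, 32.1, 32.1 and 11.2 in saline and 33.3, 36.8, 38.9, 40.4 and 52.9 in bleomycin vehicle lungs (log2 fold change 0.78, SE 0.23, edgeR adjusted p = 0.00971). No bleomycin library overlapped the saline group. After Ad-TGFb1 it rose by 1.07 (SE 0.27, adjusted p = 0.0068). Oasl1 read 2.19, 2.00, 2.03, 1.81 and 2.13 in saline vehicle and 2.79, 2.42, 3.86, 3.16 and 3.34 in bleomycin vehicle lungs, where every bleomycin library was higher (log2 fold change 0.59, SE 0.17, edgeR adjusted p = 0.0113). It was at 0.62 after Ad-TGFb1 with an adjusted p of 0.0949. Oasl2 was called after Ad-TGFb1 and not after bleomycin. It read 49.1, 45.1, 59.3, 54.3 and 31.1 in saline, 48.2, 51.8, 60.3, 57.1 and 55.1 in bleomycin, 54.0, 46.8, 77.0, 55.5 and 43.3 in empty vector and 107, 88.1, 87.1, 73.7 and 97.6 in Ad-TGFb1 vehicle lungs. The saline and bleomycin libraries overlapped (log2 fold change 0.17, SE 0.16, edgeR adjusted p = 0.419), as did those of the other model, where the test passed (log2 fold change 0.69, SE 0.20, edgeR adjusted p = 0.014), a call lost without the farthest libraries (adjusted p = 0.0654). For neither gene did the injuries' effects differ by the test of the difference, with adjusted p of 0.967 and 0.181. Reads of the Oas and Ifit families could be split between close paralogs, so single values are uncertain.

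Irf7, a transcription factor that drives interferon genes, read 18.1, 18.5, 19.3, 19.7 and 13.7 in saline and 19.6, 21.7, 35.8, 23.5 and 24.6 in bleomycin vehicle lungs, ranges that overlap (log2 fold change 0.46, SE 0.16, edgeR adjusted p = 0.0254). Irf7 lost its call after bleomycin with vehicle when replicate 3 of the bleomycin vehicle group or 5 of the saline vehicle group was left out, with adjusted p of up to 0.103 over all settings. In empty vector and Ad-TGFb1 vehicle lungs it read 22.9, 15.5, 37.1, 25.0 and 15.0 and 44.2, 40.3, 31.3, 34.9 and 35.7, with an empty vector library inside the Ad-TGFb1 range (log2 fold change 0.67, SE 0.26, edgeR adjusted p = 0.0605). Irf1, a factor most known as an interferon gamma target, fell after bleomycin and rose after Ad-TGFb1. It read 111, 90.7, 114, 124 and 99.4 in saline and 87.3, 83.8, 97.9, 85.7 and 80.8 in bleomycin vehicle lungs, which overlap (log2 fold change -0.33, SE 0.10, edgeR adjusted p = 0.014). Irf1 lost its call after bleomycin with vehicle when replicate 4 of the saline vehicle group was left out, with adjusted p of up to 0.0604 over all settings. With empty vector it read 139.7, 89.3, 138, 115 and 99.1 and with Ad-TGFb1 194, 181, 146, 156 and 163, all of them higher (log2 fold change 0.51, SE 0.12, edgeR adjusted p = 0.00478). The difference of the effects was 0.84 (SE 0.16, adjusted p = 0.000534).

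Stat2 and Irf9 belong to the complex that type I interferon activates. Stat2 read 107, 102, 121, 114 and 87.0 in saline and 89.5, 89.9, 106, 98.2 and 102 in bleomycin vehicle lungs, which overlap (log2 fold change -0.15, SE 0.09, edgeR adjusted p = 0.203). It read 103, 81.7, 119.5, 109 and 85.5 in empty vector and 151, 134, 121, 108 and 129 in Ad-TGFb1 vehicle lungs and rose there (log2 fold change 0.35, SE 0.11, edgeR adjusted p = 0.0252). Stat2 lost its call after Ad-TGFb1 with vehicle when replicate 1, 2 or 5 of the Ad-TGFb1 vehicle group or 2 or 5 of the empty vector vehicle group was left out, with adjusted p of up to 0.107 over all settings. Irf9 rose after Ad-TGFb1 by 0.39 (SE 0.13, adjusted p = 0.0264) and was at -0.01 after bleomycin. Irf9 lost its call after Ad-TGFb1 with vehicle when replicate 1 or 2 of the Ad-TGFb1 vehicle group or 2 or 5 of the empty vector vehicle group was left out, with adjusted p of up to 0.0887 over all settings. Stat2 lost its call between the injuries when replicate 1 of the Ad-TGFb1 vehicle group was left out, with adjusted p of up to 0.0508 over all settings. Irf9 shares its strand with the overlapping gene Rnf31, and Irf7 and Irf1 overlap Phrf1 and Gm17334 on the other strand, so reads there are uncertain. The same holds for other members, with an overlapping gene on the same strand for Gbp7, Parp14 and Rtp4. On the other strand Oas2, Oasl1, Dhx58, Ifi35, Rtp4 and Gbp2 have one.

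Of the sensors of foreign nucleic acid, Ifih1, which recognises long double-stranded RNA, read 69.0, 61.2, 67.0, 68.8 and 53.9 in saline and 69.6, 72.2, 67.6, 71.6 and 62.0 in bleomycin vehicle lungs (log2 fold change 0.08, SE 0.09, edgeR adjusted p = 0.499). The ranges overlap. It read 67.7, 58.9, 64.5, 56.2 and 49.9 with empty vector and 97.4, 84.9, 84.6, 76.0 and 85.0 with Ad-TGFb1, all of the latter higher (log2 fold change 0.51, SE 0.10, edgeR adjusted p = 0.00179). Ifih1 lost its call between the injuries when replicate 1 of the Ad-TGFb1 vehicle group or 3 or 5 of the bleomycin vehicle group or 5 of the empty vector vehicle group or 1, 3 or 4 of the saline vehicle group was left out, with adjusted p of up to 0.0765 over all settings. Ddx58, which codes for RIG-I, rose in both models. Ddx58 read 81.9, 74.8, 84.0, 81.4 and 68.4 in saline vehicle and 89.3, 97.1, 89.8, 93.4 and 95.7 in bleomycin vehicle lungs, where every bleomycin library was higher (log2 fold change 0.23, SE 0.08, edgeR adjusted p = 0.0325). Ddx58 read 89.5, 71.1, 86.0, 76.2 and 72.5 in empty vector vehicle and 112, 107, 97.8, 101 and 103 in Ad-TGFb1 vehicle lungs, where every Ad-TGFb1 library was higher (log2 fold change 0.38, SE 0.07, edgeR adjusted p = 0.0011). Ddx58 lost its call after bleomycin with vehicle when replicate 2, 4 or 5 of the bleomycin vehicle group or 2 or 5 of the saline vehicle group was left out, with adjusted p of up to 0.0759 over all settings. Zbp1, a sensor that can start necroptosis, rose by 0.70 (SE 0.22, adjusted p = 0.016) after bleomycin and by 1.16 (SE 0.32, adjusted p = 0.012) after Ad-TGFb1. Zbp1 lost its call after bleomycin with vehicle when replicate 3 of the bleomycin vehicle group was left out, with adjusted p of up to 0.0501 over all settings. Dhx58, the regulator of both RNA sensors, was called in neither, at 0.32 and 0.40.

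Among the 6 remaining induced proteins, 0 rose after bleomycin and 4 rose after Ad-TGFb1. These were Bst2 at 0.58 (SE 0.20, adjusted p = 0.039), Ifi44 at 0.77 (SE 0.27, adjusted p = 0.0455), Xaf1 at 0.58 (SE 0.13, adjusted p = 0.003) and Parp14 at 0.47 (SE 0.11, adjusted p = 0.0049). Bst2 lost its call after Ad-TGFb1 with vehicle when replicate 1, 2 or 5 of the Ad-TGFb1 vehicle group or 2, 4 or 5 of the empty vector vehicle group was left out, with adjusted p of up to 0.115 over all settings. Ifi44 lost its call after Ad-TGFb1 with vehicle when replicate 1, 2, 3 or 5 of the Ad-TGFb1 vehicle group or 2, 4 or 5 of the empty vector vehicle group was left out, with adjusted p of up to 0.123 over all settings. Xaf1, a protein linked to cell death, read 29.2, 29.0, 31.3, 37.0 and 19.1 in saline, 25.2, 24.5, 25.7, 23.4 and 27.8 in bleomycin, 31.9, 23.0, 27.7, 23.7 and 17.7 in empty vector and 42.2, 36.5, 33.5, 36.5 and 38.7 in Ad-TGFb1 vehicle lungs. The first pair overlap, the second do not, and the effects differed (log2 fold change 0.80, SE 0.20, edgeR adjusted p = 0.00477). Ifi35 read 46.1, 41.9, 44.0, 45.4 and 41.6 in saline and 32.5, 34.7, 37.8, 36.9 and 34.0 in bleomycin vehicle lungs, all bleomycin libraries lower (log2 fold change -0.34, SE 0.06, edgeR adjusted p = 0.000203). In empty vector and Ad-TGFb1 vehicle lungs it read 36.6, 31.1, 38.0, 36.8 and 36.2 and 35.0, 34.5, 38.3, 35.6 and 36.0 (log2 fold change -0.01, SE 0.07, edgeR adjusted p = 0.912). Rtp4 missed the threshold in both, at 0.09 and 0.50.

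The guanylate-binding proteins coat and break open the vacuoles of intracellular microbes. Gbp2 read 46.4, 39.8, 61.6, 58.7 and 34.6 in saline and 41.6, 35.8, 36.6, 52.0 and 32.2 in bleomycin vehicle lungs, overlapping ranges in which the bleomycin mean was lower (log2 fold change -0.31, SE 0.20, edgeR adjusted p = 0.229). It read 77.8, 43.1, 84.8, 56.8 and 33.6 in empty vector vehicle lungs and 240.1, 199.5, 165, 161 and 193 in Ad-TGFb1 vehicle lungs. The lowest Ad-TGFb1 library was above the highest empty vector library (log2 fold change 1.67, SE 0.24, edgeR adjusted p = 0.000326). Gbp5 read 16.9, 14.7, 28.9, 22.6 and 12.4 in saline vehicle and 19.0, 18.9, 17.1, 22.9 and 17.4 in bleomycin vehicle lungs, where the groups overlap (log2 fold change -0.03, SE 0.22, edgeR adjusted p = 0.924). Gbp5 read 29.9, 22.9, 41.4, 25.7 and 13.6 in empty vector vehicle and 104, 88.9, 61.7, 62.3 and 76.3 in Ad-TGFb1 vehicle lungs, where every Ad-TGFb1 library was higher (log2 fold change 1.54, SE 0.26, edgeR adjusted p = 0.00082).

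Gbp3 and Gbp7 belong to the same family. Gbp3 read 27.8, 24.9, 37.8, 33.7 and 19.5 in saline vehicle and 23.1, 20.6, 25.1, 26.2 and 22.1 in bleomycin vehicle lungs, where the groups overlap (log2 fold change -0.32, SE 0.21, edgeR adjusted p = 0.219). Gbp3 read 39.1, 28.5, 51.9, 36.3 and 25.8 in empty vector vehicle and 80.5, 66.3, 53.8, 61.2 and 66.4 in Ad-TGFb1 vehicle lungs, where every Ad-TGFb1 library was higher (log2 fold change 0.83, SE 0.19, edgeR adjusted p = 0.00337). Gbp3 thus separated the groups of the Ad-TGFb1 model alone. Gbp7 read 63.4, 55.6, 80.5, 86.1 and 39.2 in saline vehicle and 51.3, 49.4, 45.9, 54.6 and 43.0 in bleomycin vehicle lungs, where the groups overlap (log2 fold change -0.44, SE 0.24, edgeR adjusted p = 0.155). Gbp7 read 96.5, 51.6, 79.1, 54.1 and 31.6 in empty vector vehicle and 144, 118, 91.3, 123 and 122 in Ad-TGFb1 vehicle lungs, where the groups overlap (log2 fold change 0.92, SE 0.22, edgeR adjusted p = 0.00482). None of the 4 guanylate-binding proteins was called after bleomycin, and all 4 differed between the injuries, at 1.98, 1.15, 1.57 and 1.35 on the log2 scale in the order Gbp2, Gbp3, Gbp5 and Gbp7. The 4 genes are close paralogs in 1 cluster on chromosome 3, and reads could be split between them.

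The immunity-related GTPases guard the same vacuoles, Irgm1, Irgm2 and Igtp as regulators and Iigp1 as an effector. Igtp read 26.9, 21.5, 38.7, 39.0 and 13.0 in saline and 23.2, 22.6, 21.4, 29.1 and 19.4 in bleomycin vehicle lungs, where the bleomycin libraries lay inside the saline range (log2 fold change -0.29, SE 0.27, edgeR adjusted p = 0.402). In empty vector vehicle lungs it read 52.9, 17.0, 54.3, 36.8 and 14.5 and in Ad-TGFb1 vehicle lungs 124, 106, 73.0, 75.7 and 88.0, with no overlap (log2 fold change 1.39, SE 0.31, edgeR adjusted p = 0.00322). Irgm2 and Igtp overlap on 1 strand, so their reads are uncertain. Irgm2 rose after Ad-TGFb1 by 0.98 (SE 0.25, adjusted p = 0.00808) and Irgm1 by 0.91 (SE 0.23, adjusted p = 0.00795), with -0.31 and 0.25 after bleomycin, neither called. Iigp1 was the exception in bleomycin lungs.

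Iigp1 read 29.3, 31.4, 66.7, 47.4 and 23.0 in saline and 58.4, 63.0, 89.9, 59.8 and 56.9 in bleomycin vehicle lungs and rose, although the ranges overlap (log2 fold change 0.70, SE 0.26, edgeR adjusted p = 0.0346). It read 97.0, 63.2, 161, 93.3 and 28.9 with empty vector and 410.4, 333, 224, 234 and 329.7 with Ad-TGFb1, where all 5 were higher (log2 fold change 1.77, SE 0.34, edgeR adjusted p = 0.00148). Iigp1 lost its call after bleomycin with vehicle when replicate 2 or 3 of the bleomycin vehicle group or 1, 2 or 5 of the saline vehicle group was left out, with adjusted p of up to 0.102 over all settings. By the test of the difference Iigp1 did not separate the injuries, at 1.06 (SE 0.44, adjusted p = 0.103), nor did Irgm1, at 0.66 (SE 0.28, adjusted p = 0.113).

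Under saracatinib, bleomycin lungs again differed from saline lungs, in other libraries. Of 37 members, 18 rose and 1 fell, where 7.79% of all tested genes rose and 8.18% fell. The median was 0.37, against -0.01 over all genes. Oas3 at 2.07 (SE 0.30, adjusted p = 0.000251), Oas2 at 1.34 (SE 0.23, adjusted p = 0.00102), Mx1 at 1.32 (SE 0.22, adjusted p = 0.000747), Iigp1 at 1.15 (SE 0.26, adjusted p = 0.00728) and Rsad2 at 1.11 (SE 0.29, adjusted p = 0.0164) had the largest rises. Ifit1 at 0.92 (SE 0.24, adjusted p = 0.0155), Gbp5 at 0.94 (SE 0.22, adjusted p = 0.00899), Oasl2, Mx2, Irf9, Dhx58 and Ifi44 rose here and were not called with vehicle, and for none of them was the interaction called. Ifi35 fell, at -0.25 (SE 0.06, adjusted p = 0.0104). The saline saracatinib group held a pair of low libraries, replicates 3 and 5, the lowest for 7 and 28 members, and leaving out single libraries gave 13 to 22 members called higher. The count of 18 was also reached without the farthest libraries.

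In Ad-TGFb1 lungs under saracatinib, 13 of 37 members rose and 0 fell, where 2.21% of all tested genes rose and 0.361% fell. All 37 values were above 0, with a median of 0.74 against -0.01 over all genes. The 13 were Ifit1, Ifit3, Irf1, Stat2, Xaf1 and all 8 GTPases. Iigp1 had 2.04 (SE 0.35, adjusted p = 0.00361), Gbp2 1.69 (SE 0.24, adjusted p = 0.0016), Igtp 1.68 (SE 0.32, adjusted p = 0.00747) and Gbp5 1.65 (SE 0.26, adjusted p = 0.0024). Irgm1 lost its call after Ad-TGFb1 with saracatinib when replicate 1, 3 or 5 of the Ad-TGFb1 saracatinib group or 3 of the empty vector saracatinib group was left out, with adjusted p of up to 0.0616 over all settings. Irf1 lost its call after Ad-TGFb1 with saracatinib when replicate 1, 3 or 5 of the Ad-TGFb1 saracatinib group or 3 or 5 of the empty vector saracatinib group was left out, with adjusted p of up to 0.0641 over all settings. Gbp7 lost its call after Ad-TGFb1 with saracatinib when replicate 1, 3, 4 or 5 of the Ad-TGFb1 saracatinib group or 1, 3, 4 or 5 of the empty vector saracatinib group was left out, with adjusted p of up to 0.11 over all settings. Xaf1 lost its call after Ad-TGFb1 with saracatinib when replicate 1, 3, 4 or 5 of the Ad-TGFb1 saracatinib group or 1, 3, 4 or 5 of the empty vector saracatinib group was left out, with adjusted p of up to 0.172 over all settings. The count depended on single libraries. Without replicate 2 of the Ad-TGFb1 saracatinib group 26 members rose, and without replicate 1, 3 or 5 of that group, or replicate 3 of the empty vector saracatinib group, 7 rose. DESeq2 called 24 and limma voom with quality weights 18, and a fit of all 40 libraries called 20, as did leaving out the 2 farthest libraries of the model.

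**Figure D4:**
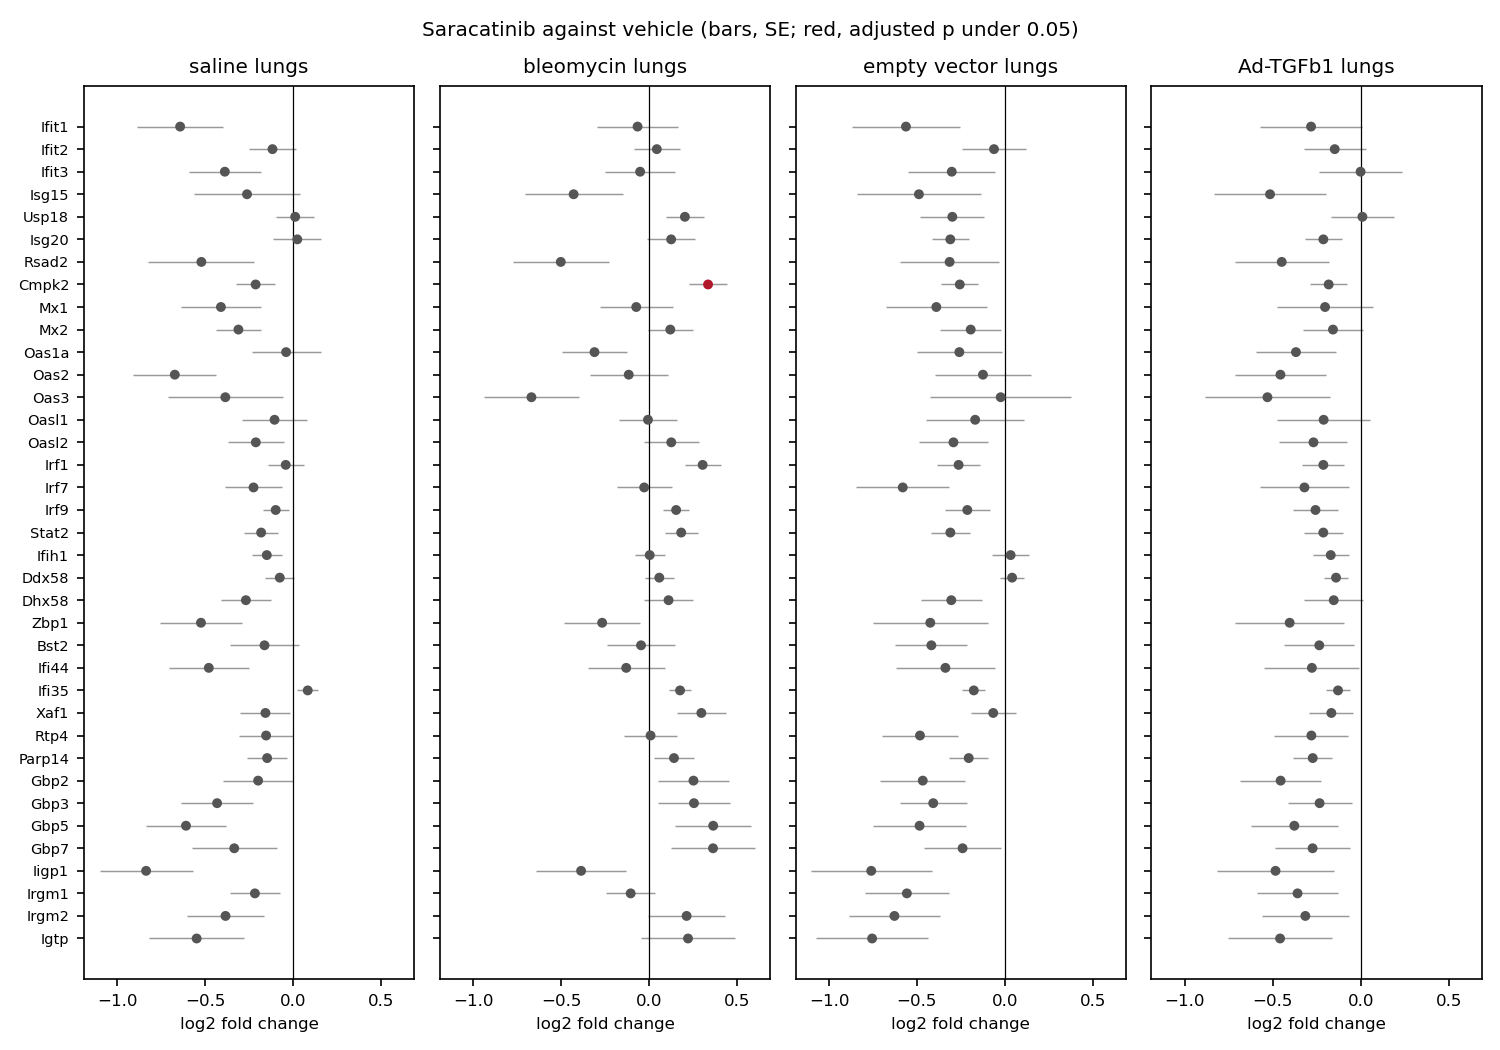
Log2 fold change of saracatinib against vehicle for the 37 members in saline, bleomycin, empty vector and Ad-TGFb1 lungs, with SE bars. Most points lie left of 0 in saline, empty vector and Ad-TGFb1 lungs and on both sides in bleomycin lungs, and the only red point is Cmpk2 in bleomycin lungs, the single member that passed the test.

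Saracatinib itself moved few of these genes past the test. In bleomycin lungs 1 of 37 members rose and 0 fell, where 5.31% of all tested genes rose and 8.71% fell. The member was Cmpk2, which read 16.3, 15.9, 14.1, 18.1 and 16.1 with vehicle and 16.7, 25.4, 17.6, 21.2 and 20.5 with saracatinib (log2 fold change 0.34, SE 0.11, edgeR adjusted p = 0.0461). The groups overlap, and the call held in 7 of 17 other settings, being lost when replicate 2, 4 or 5 of the bleomycin saracatinib group or 1, 2, 3 or 5 of the bleomycin vehicle group was left out (adjusted p of up to 0.148 over all settings). The median of the members was 0.06, with 22 values above 0 and 15 below. Among those below were Oas3 at -0.67 (SE 0.27, adjusted p = 0.0984) and Rsad2 at -0.50 (SE 0.27, adjusted p = 0.234). The saracatinib libraries lay above all vehicle libraries for Irf9, Ifi35, Xaf1, Parp14 and Gbp7, at log2 differences of 0.15, 0.18, 0.30, 0.14 and 0.36, none of them called. Of all tested genes 4.04% separated these groups in that direction. DESeq2 and the fit without the farthest libraries each called 3 members higher, the latter with 1 lower, and the fit with no low-count filter called 0.

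In saline lungs saracatinib gave 0 called members, where 0.00531% of all tested genes were called, and 8 members at an unadjusted p under 0.05, which 7.43% of all genes reached. The values were below 0 for 34 of 37, with a median of -0.22. In empty vector lungs it gave 0 called members, again where 0.00531% of all genes were called, and 12 at an unadjusted p under 0.05, which 11.1% of all genes reached. There 35 of 37 values were below 0, with a median of -0.30. In Ad-TGFb1 lungs it gave 0 called members, where 0.0903% of all genes were called, and 1 at an unadjusted p under 0.05, which 8.76% of all genes reached. There 36 of 37 were below 0, with a median of -0.27. DESeq2, limma voom and the fit without the farthest libraries also called 0 members in each of these 3 kinds of lung. The members share their libraries, so the number of values on 1 side of 0 counts genes and not independent observations. The mean log2 CPM of the 37 members, relative to all 40 libraries, overlapped between drug and vehicle in all 3. In saline lungs it ran from -1.04 to -0.251 with saracatinib and from -0.695 to 0.0517 with vehicle. In the same order it ran from -0.557 to -0.2 and -0.508 to 0.428 in empty vector lungs. In Ad-TGFb1 lungs it ran from -0.108 to 0.973 and 0.542 to 0.989.

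Of the GTPases in drug-treated lungs of the Ad-TGFb1 model, Gbp2 read 42.2, 51.4, 44.3, 44.8 and 34.3 in empty vector saracatinib and 192, 83.9, 147, 95.4 and 181 in Ad-TGFb1 saracatinib lungs, where every Ad-TGFb1 library was higher (log2 fold change 1.69, SE 0.24, edgeR adjusted p = 0.0016). Igtp read 16.4, 25.8, 19.7, 19.9 and 24.3 in empty vector saracatinib and 98.8, 41.5, 71.0, 48.6 and 79.7 in Ad-TGFb1 saracatinib lungs, where every Ad-TGFb1 library was higher. Gbp5 read 15.2, 26.0, 18.8, 16.6 and 20.0 in empty vector saracatinib and 77.8, 33.4, 69.9, 44.7 and 76.1 in Ad-TGFb1 saracatinib lungs, where every Ad-TGFb1 library was higher. All 3 separated the groups, and within the Ad-TGFb1 group replicate 2 was the lowest. Iigp1 read 39.5, 72.3, 51.2, 49.2 and 53.0 in empty vector saracatinib and 344, 111, 232, 142 and 263 in Ad-TGFb1 saracatinib lungs, where every Ad-TGFb1 library was higher. Gbp3 read 25.9, 33.8, 27.2, 27.4 and 24.4 in empty vector saracatinib and 74.9, 36.2, 59.4, 43.7 and 64.3 in Ad-TGFb1 saracatinib lungs, where every Ad-TGFb1 library was higher (log2 fold change 1.01, SE 0.19, edgeR adjusted p = 0.00726). Irgm2 read 44.6, 65.3, 49.4, 41.3 and 48.7 in empty vector saracatinib and 171, 82.8, 126, 97.5 and 136 in Ad-TGFb1 saracatinib lungs, where every Ad-TGFb1 library was higher (log2 fold change 1.30, SE 0.26, edgeR adjusted p = 0.0102). Irgm1 read 32.0, 47.5, 32.6, 34.0 and 33.9 in empty vector saracatinib and 109, 47.8, 83.1, 62.1 and 85.7 in Ad-TGFb1 saracatinib lungs, where every Ad-TGFb1 library was higher (log2 fold change 1.11, SE 0.24, edgeR adjusted p = 0.0151).

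The antiviral genes spread widely in the same groups, with replicate 1 as the highest Ad-TGFb1 library. Ifit1 read 13.5, 13.4, 9.64, 9.71 and 14.6 in empty vector saracatinib and 48.2, 12.3, 28.7, 20.2 and 30.4 in Ad-TGFb1 saracatinib lungs, where the groups overlap (log2 fold change 1.20, SE 0.30, edgeR adjusted p = 0.0376). Ifit1 lost its call after Ad-TGFb1 with saracatinib when replicate 1, 3 or 5 of the Ad-TGFb1 saracatinib group or 1, 2, 3, 4 or 5 of the empty vector saracatinib group was left out, with adjusted p of up to 0.15 over all settings. Ifit3 read 21.6, 20.7, 17.7, 17.2 and 17.0 in empty vector saracatinib and 79.6, 27.6, 40.0, 39.2 and 49.4 in Ad-TGFb1 saracatinib lungs, where every Ad-TGFb1 library was higher (log2 fold change 1.32, SE 0.24, edgeR adjusted p = 0.00699). Both IFIT genes were called. Isg15 read 3.00, 3.19, 2.27, 2.58 and 2.38 in empty vector saracatinib and 13.2, 2.88, 5.48, 3.28 and 6.74 in Ad-TGFb1 saracatinib lungs, where the groups overlap (log2 fold change 1.22, SE 0.34, edgeR adjusted p = 0.0638). Rsad2 read 8.15, 10.6, 8.27, 4.26 and 10.8 in empty vector saracatinib and 26.5, 8.27, 20.1, 9.85 and 17.4 in Ad-TGFb1 saracatinib lungs, where the groups overlap (log2 fold change 0.96, SE 0.28, edgeR adjusted p = 0.0739). Mx1 read 7.9, 8.96, 6.73, 5.25 and 12.9 in empty vector saracatinib and 22.6, 8.36, 18.4, 8.63 and 16.0 in Ad-TGFb1 saracatinib lungs, where the groups overlap (log2 fold change 0.82, SE 0.28, edgeR adjusted p = 0.141). These 3 missed the threshold, with at least 1 Ad-TGFb1 library inside the empty vector range. Oasl2 read 59.8, 47.8, 43.3, 32.9 and 44.0 in empty vector saracatinib and 112, 48.1, 79.7, 57.2 and 78.1 in Ad-TGFb1 saracatinib lungs, where the groups overlap (log2 fold change 0.72, SE 0.20, edgeR adjusted p = 0.0582). Ifih1 read 68.1, 64.8, 55.6, 59.6 and 58.5 in empty vector saracatinib and 95.1, 60.8, 74.5, 66.3 and 82.4 in Ad-TGFb1 saracatinib lungs, where the groups overlap (log2 fold change 0.31, SE 0.10, edgeR adjusted p = 0.13). Usp18 read 18.3, 12.2, 19.5, 20.7 and 20.0 in empty vector saracatinib and 29.8, 16.4, 23.0, 16.4 and 24.7 in Ad-TGFb1 saracatinib lungs, where the groups overlap (log2 fold change 0.28, SE 0.18, edgeR adjusted p = 0.444).

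Among the transcription factors, Irf1 and Stat2 were called in these drug-treated lungs and Irf7 was not. Irf1 read 101, 109.9, 90.3, 99.99 and 88.7 in empty vector saracatinib and 168, 117, 159, 129.7 and 149 in Ad-TGFb1 saracatinib lungs, where every Ad-TGFb1 library was higher (log2 fold change 0.56, SE 0.12, edgeR adjusted p = 0.0153). Stat2 read 76.2, 81.6, 74.5, 79.6 and 94.3 in empty vector saracatinib and 129.7, 99.0, 117, 92.5 and 116 in Ad-TGFb1 saracatinib lungs, where the groups overlap (log2 fold change 0.45, SE 0.11, edgeR adjusted p = 0.034). Stat2 lost its call after Ad-TGFb1 with saracatinib when replicate 1, 3 or 5 of the Ad-TGFb1 saracatinib group or 1, 2, 3 or 4 of the empty vector saracatinib group was left out, with adjusted p of up to 0.13 over all settings. Irf7 read 19.4, 15.8, 14.2, 11.6 and 16.9 in empty vector saracatinib and 52.8, 16.5, 29.3, 23.4 and 27.1 in Ad-TGFb1 saracatinib lungs, where the groups overlap (log2 fold change 0.93, SE 0.26, edgeR adjusted p = 0.0648).

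In the drug-treated groups of the bleomycin model, the bleomycin libraries lay above all saline libraries for 15 of 37 members, 14 of them outside the GTPases, where 6.3% of all tested genes did so. Oas3 read 4.34, 3.98, 1.81, 2.1 and 0.956 in saline saracatinib and 15.9, 8.65, 9.73, 14.5 and 9.87 in bleomycin saracatinib lungs, where every bleomycin library was higher. Oas2 read 19.0, 16.8, 12.8, 13.1 and 10.6 in saline saracatinib and 46.3, 32.8, 35.5, 38.0 and 34.2 in bleomycin saracatinib lungs, where every bleomycin library was higher. Mx1 read 6.2, 5.09, 3.63, 3.47 and 3.72 in saline saracatinib and 14.5, 9.24, 9.97, 13.1 and 9.87 in bleomycin saracatinib lungs, where every bleomycin library was higher. Each of the 3 was called, with the values given above. Ifit1 read 11.3, 14.8, 7.48, 11.0 and 4.57 in saline saracatinib and 17.9, 18.4, 18.5, 21.4 and 18.9 in bleomycin saracatinib lungs, where every bleomycin library was higher (log2 fold change 0.92, SE 0.24, edgeR adjusted p = 0.0155). Ifit3 read 22.7, 28.6, 14.3, 21.7 and 9.78 in saline saracatinib and 36.1, 39.0, 32.4, 43.0 and 33.6 in bleomycin saracatinib lungs, where every bleomycin library was higher (log2 fold change 0.90, SE 0.20, edgeR adjusted p = 0.00665). Rsad2 read 5.27, 5.81, 3.4, 3.02 and 1.91 in saline saracatinib and 9.64, 6.86, 7.75, 11.0 and 8.09 in bleomycin saracatinib lungs, where every bleomycin library was higher. These 3 were called as well. Isg15 read 3.16, 3.9, 1.59, 3.02 and 0.956 in saline saracatinib and 3.76, 4.84, 2.85, 5.74 and 3.96 in bleomycin saracatinib lungs, where the groups overlap (log2 fold change 0.69, SE 0.30, edgeR adjusted p = 0.12). Oasl2 read 47.0, 53.6, 34.9, 43.8 and 27.2 in saline saracatinib and 52.6, 65.1, 55.3, 62.0 and 62.2 in bleomycin saracatinib lungs, where the groups overlap (log2 fold change 0.50, SE 0.16, edgeR adjusted p = 0.0353). Oasl2 lost its call after bleomycin with saracatinib when replicate 2, 4 or 5 of the bleomycin saracatinib group or 3 or 5 of the saline saracatinib group was left out, with adjusted p of up to 0.0909 over all settings. Usp18 read 18.5, 16.4, 16.2, 16.5 and 23.8 in saline saracatinib and 20.3, 21.0, 18.9, 17.4 and 20.7 in bleomycin saracatinib lungs, where the groups overlap (log2 fold change 0.09, SE 0.11, edgeR adjusted p = 0.615).

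Of the sensors under saracatinib, Dhx58 read 10.7, 8.6, 8.27, 10.1 and 5.95 in saline saracatinib and 14.7, 13.0, 15.3, 16.9 and 12.2 in bleomycin saracatinib lungs, where every bleomycin library was higher (log2 fold change 0.70, SE 0.14, edgeR adjusted p = 0.00311). Ddx58 read 81.3, 84.7, 66.5, 80.1 and 59.0 in saline saracatinib and 103, 94.0, 94.8, 93.8 and 98.8 in bleomycin saracatinib lungs, where every bleomycin library was higher (log2 fold change 0.36, SE 0.08, edgeR adjusted p = 0.00703). Ifih1 read 57.1, 69.2, 51.2, 62.9 and 48.8 in saline saracatinib and 64.7, 70.1, 66.2, 68.5 and 74.2 in bleomycin saracatinib lungs, where the groups overlap (log2 fold change 0.23, SE 0.09, edgeR adjusted p = 0.0755). The first pair were called and Ifih1 was not. Irf7 read 19.6, 18.2, 10.3, 14.9 and 13.2 in saline saracatinib and 26.0, 24.7, 22.6, 25.5 and 23.7 in bleomycin saracatinib lungs, where every bleomycin library was higher (log2 fold change 0.66, SE 0.16, edgeR adjusted p = 0.0102). Irf1 read 114, 116, 98.0, 116 and 80.7 in saline saracatinib and 109, 122, 91.6, 102 and 114 in bleomycin saracatinib lungs, where the groups overlap (log2 fold change 0.02, SE 0.10, edgeR adjusted p = 0.937). Stat2 read 110.5, 95.7, 83.7, 96.6 and 83.2 in saline saracatinib and 114, 127, 95.3, 109 and 105 in bleomycin saracatinib lungs, where the groups overlap (log2 fold change 0.21, SE 0.09, edgeR adjusted p = 0.139). Of the factors, Irf7 was called, together with Irf9 at 0.25 (SE 0.07, adjusted p = 0.0292). Irf9 lost its call after bleomycin with saracatinib when replicate 1 or 4 of the bleomycin saracatinib group or 3 or 5 of the saline saracatinib group was left out, with adjusted p of up to 0.0836 over all settings.

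For the GTPases in these groups, Iigp1 read 27.1, 31.3, 18.6, 22.9 and 10.7 in saline saracatinib and 58.3, 53.5, 36.4, 49.1 and 53.3 in bleomycin saracatinib lungs, where every bleomycin library was higher (log2 fold change 1.15, SE 0.26, edgeR adjusted p = 0.00728). Gbp2 read 50.7, 49.5, 34.6, 48.5 and 26.9 in saline saracatinib and 39.8, 64.4, 34.1, 44.1 and 53.5 in bleomycin saracatinib lungs, where the groups overlap (log2 fold change 0.14, SE 0.20, edgeR adjusted p = 0.681). Igtp read 24.0, 27.2, 14.3, 19.2 and 10.1 in saline saracatinib and 25.7, 35.5, 17.1, 27.1 and 29.3 in bleomycin saracatinib lungs, where the groups overlap (log2 fold change 0.48, SE 0.27, edgeR adjusted p = 0.246). Iigp1 and Gbp5 were the called GTPases, and the other 6 had log2 values from 0.14 to 0.48. Mx2 lost its call after bleomycin with saracatinib when replicate 1 or 4 of the bleomycin saracatinib group or 3 or 5 of the saline saracatinib group was left out, with adjusted p of up to 0.0852 over all settings. Oas1a lost its call after bleomycin with saracatinib when replicate 1 of the bleomycin saracatinib group or 3 of the saline saracatinib group was left out, with adjusted p of up to 0.0529 over all settings. Ifi44 lost its call after bleomycin with saracatinib when replicate 1, 3, 4 or 5 of the bleomycin saracatinib group or 3 or 5 of the saline saracatinib group was left out, with adjusted p of up to 0.107 over all settings.

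Whether saracatinib acted differently in injured and control lungs was tested as an interaction. In the bleomycin model 0 of 37 members were called, where 1.06% of all tested genes were called, and 8 had an unadjusted p under 0.05, against 18.3% of all genes. The lowest adjusted p was 0.0795, the median was 0.34 and 34 values were above 0. DESeq2 called 1 member and limma voom 0. In the Ad-TGFb1 model 0 members were called, where 0% of all tested genes were called, and 0 had an unadjusted p under 0.05, against 10.3% of all genes. DESeq2 and limma voom called 0 there. Without the farthest libraries 0 members were called in either model. Between the models the saracatinib effect in injured lungs differed for 1 of 37 members, where 2.46% of all tested genes were called. Without the farthest libraries 4 members were called. The 1 was Ifi35, at -0.31 (SE 0.09, adjusted p = 0.0469), a call kept in 8 of 26 other settings and lost when replicate 2, 3 or 4 of the Ad-TGFb1 saracatinib group or 1, 3, 4 or 5 of the Ad-TGFb1 vehicle group or 1, 2, 3, 4 or 5 of the bleomycin saracatinib group or 1, 2, 3 or 5 of the bleomycin vehicle group was left out. It read 35.0, 34.5, 38.3, 35.6 and 36.0 in Ad-TGFb1 vehicle and 36.5, 30.9, 32.2, 28.6 and 35.2 in Ad-TGFb1 saracatinib lungs, and 32.5, 34.7, 37.8, 36.9 and 34.0 in bleomycin vehicle and 41.1, 41.4, 38.1, 39.9 and 37.9 in bleomycin saracatinib lungs. The saracatinib libraries were all higher in the bleomycin model. The other members had 33 values below 0 and 3 above, and Gbp5, Gbp2 and Igtp were at -0.75, -0.71 and -0.69, not called.

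**Figure D5:**
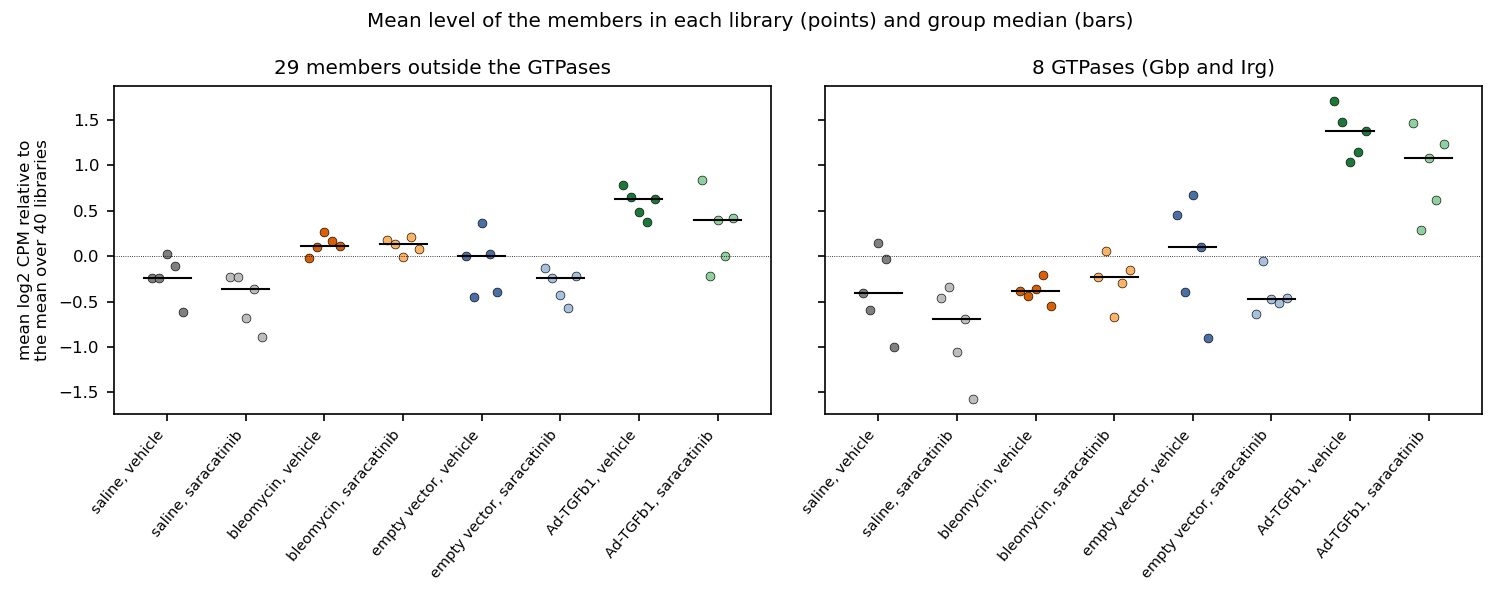
Mean log2 CPM of 29 members (left, Mx1 and Mx2 included) and of the 8 guanylate-binding and immunity-related GTPases (right) in each library (points). Values are relative to the mean over 40 libraries, with group medians (bars). For the GTPases all 5 Ad-TGFb1 vehicle libraries lie above all 5 empty vector vehicle libraries, and the bleomycin vehicle libraries lie inside the range of the saline vehicle libraries.

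Averaged over members, the level of each library shows the same groups. The mean log2 CPM of the 8 GTPases, relative to all 40 libraries, ran from -0.998 to 0.15 in saline vehicle and from -0.552 to -0.212 in bleomycin vehicle lungs. In empty vector vehicle lungs it ran from -0.904 to 0.67, and in Ad-TGFb1 vehicle lungs from 1.04 to 1.71. The bleomycin libraries lay within the saline range, and the Ad-TGFb1 libraries above every control library of their model. For the 29 other members the ranges were -0.611 to 0.0246, -0.0188 to 0.271, -0.453 to 0.361 and 0.374 to 0.789 in the same order. There the saline and bleomycin ranges overlapped, and the Ad-TGFb1 range began above the highest empty vector library. These means are a description with no test.

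The control lungs of the models were compared next. With vehicle, 3 members were higher in empty vector than in saline lungs and 2 lower, where 13.9% of all tested genes were higher and 12.3% lower. The higher ones were Rsad2 at 0.87 (SE 0.30, adjusted p = 0.0282), Mx1 at 0.86 (SE 0.27, adjusted p = 0.015) and Iigp1 at 1.16 (SE 0.32, adjusted p = 0.00676), and the lower ones Oas2 at -0.72 (SE 0.26, adjusted p = 0.039) and Ifi35 at -0.29 (SE 0.06, adjusted p = 0.000527). Without replicate 3 of the empty vector vehicle group 0 members were higher, and without replicate 5 of that group 6 were. Rsad2 lost its call between the vehicle controls when replicate 1, 3 or 4 of the empty vector vehicle group or 1 or 5 of the saline vehicle group was left out, with adjusted p of up to 0.111 over all settings. Oas2 lost its call between the vehicle controls when replicate 2, 4 or 5 of the empty vector vehicle group or 2, 3 or 4 of the saline vehicle group was left out, with adjusted p of up to 0.129 over all settings. With saracatinib, 4 members were higher and 1 lower, where 16.8% of all genes were higher and 15.8% lower. These were Rsad2 at 1.09 (SE 0.31, adjusted p = 0.00683), Mx1 at 0.89 (SE 0.28, adjusted p = 0.0119), Zbp1 at 0.78 (SE 0.30, adjusted p = 0.0481) and Iigp1 at 1.25 (SE 0.33, adjusted p = 0.00404), with Ifi35 at -0.55 (SE 0.06, adjusted p = 1.76e-07). Ifi35 read 45.2, 48.3, 40.8, 48.4 and 50.4 in saline saracatinib and 32.6, 31.9, 32.5, 32.1 and 30.6 in empty vector saracatinib lungs, where every empty vector library was lower. Iigp1 read 27.1, 31.3, 18.6, 22.9 and 10.7 in saline saracatinib and 39.5, 72.3, 51.2, 49.2 and 53.0 in empty vector saracatinib lungs, where every empty vector library was higher. Zbp1 read 6.82, 6.05, 5.67, 6.76 and 4.46 in saline saracatinib and 8.94, 14.6, 9.82, 6.74 and 11.2 in empty vector saracatinib lungs, where the groups overlap. Zbp1 kept its call in 4 of 16 other settings. Without replicate 5 of the empty vector saracatinib group 2 members were higher. Without the farthest libraries 3 were higher and 3 lower with vehicle, and 3 higher and 1 lower with saracatinib. Cell markers differed between these controls as well, and their part was not tested. With vehicle, all 5 markers of heart and striated muscle, all 5 of B cells, all 6 of T cells and 4 of 5 tested markers of plasmacytoid dendritic cells were higher in empty vector than in saline lungs. The summed level of the muscle markers was 322 to 756 CPM in saline and 322.5 to 3606 CPM in empty vector vehicle lungs, and that of the B cell markers 26.1 to 68.8 and 79.8 to 214 CPM. Other lists had lower median sums with empty vector, in ranges that overlap. Among them were endothelial cells, at 2574 CPM in saline and 1449 CPM in empty vector vehicle lungs, and alveolar macrophages, at 170.9 and 70.2 CPM. With saracatinib the same muscle and B cell markers were higher, with 7 of 7 macrophage and 5 of 5 inflammatory monocyte markers. Route, vector and experiment differ together between these controls and cannot be told apart.

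The ligands themselves were hardly seen. Of 19 ligand genes other than Ifng, type I and lambda interferons among them, 9 had 0 counts over all 40 libraries, Ifnb1 included, and no library had more than 2 counts of any. A total of 0 allows up to 3 counts, or 0.00617 CPM over all libraries, a limit for counting error only. In a single library the same 3 counts stand for 0.173 CPM at the greatest depth and 0.34 CPM at the lowest. Ifng, the gene of interferon gamma, was too low to be tested in the bleomycin model. It read 0.161, 0.102, 0.082, 0.097 and 0.0989 in empty vector and 1.34, 1.59, 0.597, 1.16 and 0.592 in Ad-TGFb1 vehicle lungs, and all Ad-TGFb1 libraries were higher (log2 fold change 3.14, SE 0.59, edgeR adjusted p = 0.00127). In saline and bleomycin vehicle lungs it read 0.151, 0.166, 0.312, 0.181 and 0.213 and 0, 0.059, 0, 0.181 and 0.071. Its counts reached 23 in 1 Ad-TGFb1 library and 4 or fewer in every saline, bleomycin and empty vector library.

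Genes around interferon gamma were also measured. Of 9 genes of its axis, 8 rose and 0 fell after Ad-TGFb1 with vehicle, and of 7 tested after bleomycin 2 rose and 0 fell. Counts of this and the next lists read against the shares of all genes given above, 11.5% higher and 14.3% lower after Ad-TGFb1 and 20.6% and 20.3% after bleomycin. Cxcl9, a chemokine induced by interferon gamma, read 12.3, 5.23, 22.6, 10.1 and 1.58 in empty vector and 99.9, 104, 63.7, 52.2 and 78.2 in Ad-TGFb1 vehicle lungs (log2 fold change 2.90, SE 0.47, edgeR adjusted p = 0.00078). All 5 were higher, and replicate 3 was the highest empty vector library, as it was for Gbp2. The largest calls beside it were Ifng, Ido1 at 1.99 (SE 0.38, adjusted p = 0.00128) and Cxcl10 at 2.31 (SE 0.45, adjusted p = 0.00152). After bleomycin those called were Cxcl10 at 1.85 (SE 0.43, adjusted p = 0.00194) and Ifngr2 at 0.50 (SE 0.12, adjusted p = 0.00286). Under saracatinib, 5 of 9 rose after Ad-TGFb1, where 2.21% of all tested genes rose. Ifng had too few counts in bleomycin lungs for its effects to be compared between the injuries. The difference between injuries was called for Ido1 at 2.38 (SE 0.59, adjusted p = 0.00571).

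Receptors and kinases of the interferons changed by smaller amounts. Of 10, 4 rose and 0 fell after bleomycin, Il10rb at 0.43 (SE 0.07, adjusted p = 6.35e-05), Jak2 at 0.48 (SE 0.08, adjusted p = 7.21e-05), Ifnar1 at 0.31 (SE 0.07, adjusted p = 0.00182) and Ifngr2. After Ad-TGFb1 8 rose and 0 fell, led by Jak2 at 0.38 (SE 0.07, adjusted p = 0.00111), Ifngr2 and Ifnar2 at 0.25 (SE 0.06, adjusted p = 0.00916). Of 9 tested brakes on the pathway, 6 rose and 0 fell in each model, among them Ptpn1 at 0.79 (SE 0.09, adjusted p = 3.99e-06) and Socs3 at 1.81 (SE 0.32, adjusted p = 0.000234) after bleomycin and Samhd1 at 0.63 (SE 0.11, adjusted p = 0.00098) and Socs1 at 0.62 (SE 0.18, adjusted p = 0.0179) after Ad-TGFb1. Of 16 sensors and adaptors outside the list, 10 rose and 1 fell after bleomycin, led by Tlr8 at 2.02 (SE 0.22, adjusted p = 1.65e-06) and Tmem173, which codes for STING, at 1.49 (SE 0.17, adjusted p = 3.13e-06). After Ad-TGFb1 7 rose and 1 fell, led by Tlr3 at 0.40 (SE 0.07, adjusted p = 0.00111) and Tlr7 at 0.97 (SE 0.18, adjusted p = 0.00114).

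A wider set of 57 matched interferon-induced genes outside the list was counted the same way. After bleomycin 13 rose and 7 fell, where 20.6% of all genes rose and 20.3% fell, so the share that rose was close to that over all genes. After Ad-TGFb1 36 rose and 0 fell, where 11.5% of all genes rose and 14.3% fell. The medians were 0.07 and 0.51. In bleomycin lungs Slfn8 at 1.13 (SE 0.15, adjusted p = 1.11e-05) and Epsti1 at 1.02 (SE 0.14, adjusted p = 1.37e-05) led, and in Ad-TGFb1 lungs Parp9 at 0.58 (SE 0.10, adjusted p = 0.000896) and the GTPase Ifi47 at 1.15 (SE 0.22, adjusted p = 0.00128) were among the first 4. The effect of the injuries differed for some of them, 14 higher and 1 lower after Ad-TGFb1, where 6.47% of all tested genes were higher and 8.64% lower. Gbp4 at 1.93 (SE 0.38, adjusted p = 0.000665) and Gbp6 at 2.03 (SE 0.44, adjusted p = 0.00183) were among the first. With saracatinib in bleomycin lungs 3 of the 57 rose and 5 fell, shares close to the 5.31% and 8.71% of all genes, with Ifi213 at 0.95 (SE 0.18, adjusted p = 0.00296) and Slfn9 at -1.29 (SE 0.24, adjusted p = 0.00314) first.

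Markers of several cell types moved with the injuries, and their part in these results was not tested. The 7 macrophage markers all rose in both models. Their sum was 243 to 319.8 CPM in saline vehicle and 649 to 1152 CPM in bleomycin vehicle lungs, and 288 to 423 and 486 to 589 CPM in empty vector and Ad-TGFb1 vehicle lungs. With saracatinib in bleomycin lungs 6 of the 7 fell, where 8.71% of all tested genes fell, and the sum was 373 to 578 CPM. Of 6 alveolar macrophage markers 2 rose and 1 fell after bleomycin, and 4 rose after Ad-TGFb1. Their sum was 85.7 to 223 and 352 to 560 CPM in saline and bleomycin vehicle lungs, and 51.9 to 290.9 and 318 to 424 CPM in empty vector and Ad-TGFb1 vehicle lungs, with no overlap in either model. Of 5 inflammatory monocyte markers 3 rose after bleomycin and 2 after Ad-TGFb1, with sums of 74.3 to 112, 93.0 to 133.5, 117 to 189 and 182 to 255 CPM in the same order. Of 5 neutrophil markers 0 were called after bleomycin and 3 rose after Ad-TGFb1. Of 6 T cell markers 5 rose after bleomycin and 3 after Ad-TGFb1, and the sums were 19.1 to 24.9, 31.3 to 50.3, 24.8 to 81.0 and 82.9 to 102 CPM in saline, bleomycin, empty vector and Ad-TGFb1 vehicle lungs. Of 6 NK cell markers 0 changed after bleomycin and 1 rose after Ad-TGFb1, with sums of 11.0 to 19.1, 5.37 to 13.3, 11.8 to 34.5 and 32.7 to 35.4 CPM. Of the 6 markers of plasmacytoid dendritic cells, the main source of type I interferon in blood, 5 were tested and 0 were called after either injury with vehicle, with sums of 10.1 to 19.4, 11.4 to 17.9, 20.3 to 72.2 and 30.8 to 43.9 CPM. No marker of these lists was at 0 in every library of a group. All 5 ciliated and all 3 club cell markers fell in both models. The 5 markers of heart and striated muscle fell after bleomycin, and 0 were called after Ad-TGFb1.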

How the data were processed

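RNA of left lungs was sequenced from 40 mice in 8 groups of 5, with ribosomal RNA depletion and a stranded kit per the labels' protocols. Per the submitters' processing notes, STAR 2.6.1d, Picard, featureCounts of Subread 1.6.3 and edgeR were used, and the builds mm9 and GRCm38 are named. The sources do not state whether counting used strand, so overlapping and antisense genes are uncertain. The authors deposited tables with the count of reads of each of 55536 genes in every library of a model, from 8812233 to 17336972 reads in all per library. Shorter tables that are named as TMM normalized hold raw counts (14832 of 14832 and 14856 of 14856 rows equal a row of the full tables) and were not used. No column of values was left unmapped. GENCODE M21 held 55450 of the 55536 identifiers and gave the gene symbols.

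Genes were filtered with filterByExpr, libraries were scaled by TMM (factors 0.909 to 1.07), and edgeR 4.0.16 in R 4.3.3 ran the quasi-likelihood test with 1 coefficient per group. Each model's 4 groups entered 1 fit, and comparisons between models used all 40 libraries. There were 14 comparisons. Calls used Benjamini-Hochberg adjustment over every tested gene and a threshold of 0.05 on the adjusted p. CPM uses TMM-scaled totals, and means of log2 CPM have a prior count of 2. Alternatives were DESeq2 size factors, no low-count filter, DESeq2 1.42.0, limma 3.58.1 voom with quality weights, fits of the compared groups alone or of all 40 libraries, and each library left out. A further one, added after seeing the data, left out 2 libraries in each model. These were the farthest from their group mean on the first 2 principal components. The test was tried on simulated data. The 12 members with values in every library were set by role, with up to 6 further called members per comparison and up to 4 called genes per pathway list, in order of adjusted p. A result that this rule names among the pathway lists is not reported here. The members and lists were chosen with earlier results of these data known. Lists are described by counts and medians, with no test of a list. Promoter windows came from RefSeq on GRCm38.p6.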

Additional observations from a re-analysis of the deposited data

Results flagged for a closer look

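Of 96 sets of 5 libraries (12 members in 8 groups), 3 held a library far from the other 4, and chance alone would mark about 1 in 20. These were Rsad2 at 18.2 CPM in replicate 3 of the bleomycin vehicle group, the highest, Irf7 at 13.7 CPM in replicate 5 of the saline vehicle group, the lowest, and Usp18 at 12.2 CPM in replicate 2 of the empty vector saracatinib group, the lowest.

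The signed log2 change after Ad-TGFb1 was higher than that after bleomycin, by the test of the difference in edgeR, for 12 members. Of these, Cmpk2 and Ifi35 fell after bleomycin and were not called after Ad-TGFb1. On the log2 scale the differences were 1.98 for Gbp2, 1.68 for Igtp, 1.57 for Gbp5, 1.35 for Gbp7, 1.29 for Irgm2 and 1.15 for Gbp3. They were 0.84 for Irf1, 0.80 for Xaf1, 0.59 for Cmpk2, 0.50 for Stat2, 0.43 for Ifih1 and 0.32 for Ifi35. The saracatinib effect in injured lungs differed between the models for Ifi35, at -0.31.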

How the results depend on the processing

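Over all comparisons and settings, no member's called value changed sign. In bleomycin vehicle lungs the 3 members called lower became 5 with limma and 6 without the farthest libraries. In bleomycin saracatinib lungs the 1 called lower became 0 with no filter. For saracatinib in bleomycin lungs the 1 called higher became 0 with no filter, 3 with DESeq2, 2 with limma, 2 with only the compared groups, 2 with all 40 libraries and 3 without the farthest libraries, and the 0 called lower became 1 with limma, 1 with only the compared groups and 1 without the farthest libraries. The bleomycin interaction went from 0 to 1 with DESeq2 and 1 with all 40 libraries. In Ad-TGFb1 saracatinib lungs the 13 became 24 with DESeq2, 20 with all 40 libraries and 20 without the farthest. Between vehicle controls the 3 higher became 5 with limma and 1 with only the compared groups, and the 2 lower 1 with no filter and 1 with only the compared groups. Between saracatinib controls the 4 higher became 2 with limma and the 1 lower 2 with DESeq2 size factors and 2 with DESeq2. The saracatinib effect between models, 1 lower, became 0 with no filter, 3 with DESeq2, 3 with limma, 2 with only the compared groups and 4 without the farthest. The cause was not tested.

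Leaving out single libraries gave 7 to 13 higher and 2 to 4 lower after bleomycin with vehicle, 13 to 22 and 1 to 1 with saracatinib, 21 to 32 higher after Ad-TGFb1 with vehicle and 7 to 26 with saracatinib. It gave 0 to 2 higher for saracatinib in bleomycin lungs, 0 to 1 for the bleomycin interaction, 10 to 17 for the injury difference and 0 to 2 lower for the saracatinib difference. Between controls it gave 0 to 6 higher and 1 to 2 lower with vehicle, and 2 to 4 and 1 to 2 with saracatinib. With low counts, as for Oas3 and Isg15, precision is limited by depth.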
